A study of Mus musculus with 16 samples.

Results

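Immune checkpoints are pairs of a ligand and a receptor that restrain immune cells, and 10 genes that encode them were described in B16F10 melanoma tumors. The genes were taken by symbol out of the 45777 genes listed in the deposited tables, and all 10 were found. The ligands are Cd274 (PD-L1), Pdcd1lg2 (PD-L2), Cd276 (B7-H3), Lgals9 (galectin-9) and Cd47, and the receptors are Pdcd1 (PD-1), Ctla4, Lag3, Havcr2 (TIM-3) and Tigit. In 6 of them (Cd274, Lag3, Havcr2, Lgals9, Cd47 and Cd276) every tumor had a count above 0, and these passed the exclusion of genes with a 0. The other 4 (Pdcd1lg2, Pdcd1, Ctla4 and Tigit) had a 0 in at least 1 tumor, and their test values come from a fit with no exclusion.

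B16F10, a pigmented melanoma line of C57BL/6 origin, was grown under the skin as a syngeneic allograft in mice that were 6 weeks old at injection. The hosts were lean wild-type C57BL/6J mice or ob/ob mice, which lack leptin in all tissues and become obese. RNA was sequenced before therapy or after etoposide (ETS), an inhibitor of topoisomerase that leaves breaks in DNA. The course of ETS began once tumors had reached about 100 mm3 and consisted of 5 injections at 20 mg per kg. The labels call the groups before therapy ctrl, and the day on which those tumors were taken is not given. ETS and days of growth cannot be told apart here, so an effect of ETS means the difference between these groups. Each of the 4 groups held 4 tumors, and total counts per tumor ran from 47199949 to 61655287. All groups share the same tumor line and assay, and lean and obese hosts differ in the ob allele and in what follows from it. Whole tumors were sequenced, so tumor cells and host cells contribute to each value.

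PD-L1 and PD-L2 bind PD-1 on T cells and dampen their activation, CTLA-4 competes with the costimulatory receptor CD28 for shared ligands, and LAG-3, TIM-3 and TIGIT are further inhibitory receptors of T cells and NK cells. Interferon gamma from activated T cells and NK cells is a known inducer of PD-L1 through JAK kinases and the factor IRF1. Galectin-9 is a sugar-binding ligand of TIM-3, CD47 tells macrophages not to engulf a cell by binding SIRP alpha, and B7-H3 is a member of the B7 family common on tumor cells.

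The promoters of 9 of the 10 genes were matched in the RefSeq table (GRCm38.p6, the assembly of mm10), which gives 250 bases before to 50 after each start. The core of the interferon response element, GAAANNGAA, searched on both strands, was found in 3 of them, and 8.56% of 32851 promoters of the same length held it. These 3 promoters are shown because they hold the motif that the interferon cascade is known to read, with the match in capitals (here each match is on the strand opposite to the one printed).

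Cd274 promoter, chr19:29367188-29367487, plus strand: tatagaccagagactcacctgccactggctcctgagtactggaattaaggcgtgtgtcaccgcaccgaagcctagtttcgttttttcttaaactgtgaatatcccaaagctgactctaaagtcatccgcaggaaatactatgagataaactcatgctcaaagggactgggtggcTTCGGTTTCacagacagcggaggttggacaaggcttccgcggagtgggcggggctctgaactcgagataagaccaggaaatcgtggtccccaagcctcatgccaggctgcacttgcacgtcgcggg

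Lgals9 promoter, chr11:78984875-78985174, minus strand: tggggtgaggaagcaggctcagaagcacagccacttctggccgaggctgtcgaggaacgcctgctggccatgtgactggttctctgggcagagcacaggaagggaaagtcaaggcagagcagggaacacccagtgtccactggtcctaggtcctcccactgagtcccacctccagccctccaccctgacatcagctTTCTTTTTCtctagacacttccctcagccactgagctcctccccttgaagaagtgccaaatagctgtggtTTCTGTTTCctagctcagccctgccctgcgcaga

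Ctla4 promoter, chr1:60908775-60909074, plus strand: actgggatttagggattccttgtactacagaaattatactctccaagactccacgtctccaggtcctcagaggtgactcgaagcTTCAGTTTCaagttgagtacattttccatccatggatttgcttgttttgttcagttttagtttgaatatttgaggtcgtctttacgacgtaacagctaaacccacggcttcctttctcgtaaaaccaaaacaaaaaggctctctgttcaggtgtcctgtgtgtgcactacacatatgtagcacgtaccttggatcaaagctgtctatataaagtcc

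In Cd274 the match began 76 bases before the start used for the window, which lies inside the interval of the gene (29362107 to 29388095). Lgals9 had a match that began 54 bases before the start and another that began 16 bases past it, and in Ctla4 the match began 166 bases before the start. The STAT motif TTCNNNGAA (in 8.3% of all promoters) and the NF-kB motif GGGANTTCC (1.68%) were in 0 of the 9 genes, and the hypoxia motif ACGTG (19.6%) was in 5. These matches are letters in a window and were not tested for binding.

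Cd274, Pdcd1lg2 and all 5 receptors were higher in every lean tumor before therapy than in any tumor of the other groups, as the plot of TPM by tumor shows, whereas Lgals9 and Cd276 had their highest mean TPM in obese tumors after ETS. After ETS, 8 of the 10 genes lay lower in every lean tumor than in any lean tumor before therapy, as did 13.7% of the 28754 genes with any count (22.8% of genes tested were called lower). The same number lay lower in every obese tumor before therapy than in any lean one, as did 10.6% of genes with any count (12.9% of genes tested were called lower). In obese tumors ETS went with rises in Cd274, Cd276, Havcr2 and Lgals9, and Cd47 was the 1 gene that passed the edgeR test between obese and lean tumors after ETS. With limma on log2(TPM + 1), Cd276 passed that test in its place (log2 0.48, limma adjusted p = 0.0380) and Cd47 did not (limma adjusted p = 0.0933).

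**Figure D1:**
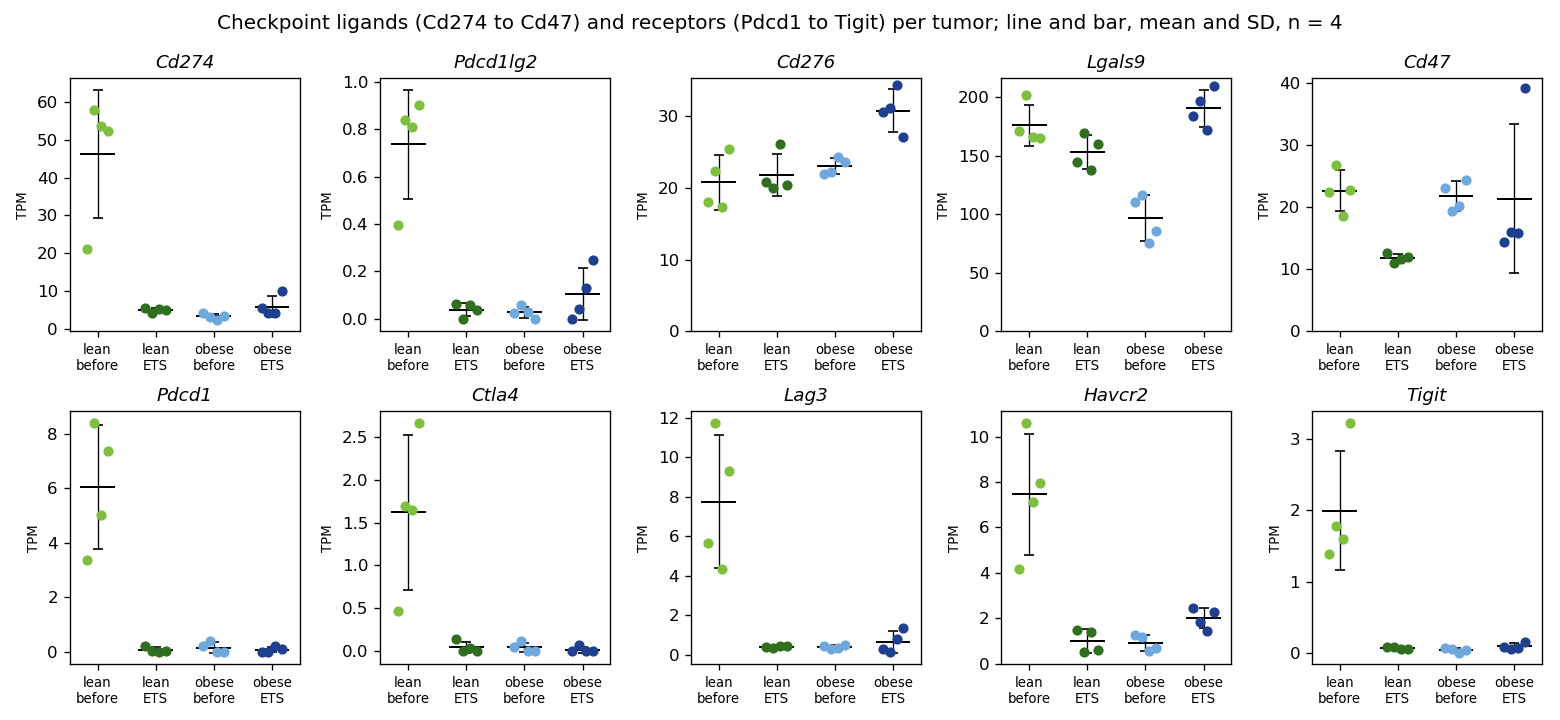
TPM (expression scaled by gene length and library size) of each checkpoint gene on the y axis for the 4 groups on the x axis, with 1 point per tumor, a line at the mean and a bar of 1 SD. Lean tumors before therapy stand above the other groups for Cd274, Pdcd1lg2 and the 5 receptors, whereas Lgals9, Cd47 and Cd276 stay above 10 TPM in every tumor.

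TPM, which allows levels to be compared between genes, put Lgals9 highest in every group, with means from 97.1 ± 19.6 (SD, n = 4) in obese tumors before therapy to 190.6 in obese tumors after ETS (range 172.3 to 209.3). Cd274 was second in lean tumors before therapy, at 46.3 ± 17.0 TPM, and behind Lgals9, Cd276 and Cd47 in the other groups, at 3.22 to 5.84 TPM. Its range in lean tumors before therapy, 21.1 to 57.9 TPM, overlapped those of Cd47 (18.6 to 26.8) and Cd276 (17.3 to 25.3), so the order of these 3 did not exceed their spread. Lag3, Havcr2 and Pdcd1 followed at 7.75 ± 3.39, 7.45 ± 2.66 and 6.04 ± 2.28 TPM, and their ranges overlapped too. Tigit (1.995 ± 0.84), Ctla4 (1.62 ± 0.90) and Pdcd1lg2 (0.74 ± 0.23) came last in lean tumors before therapy.

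Counts were near zero (under 10 in a tumor) for 4 genes. Ctla4 had under 10 counts in 11 of the 16 tumors and 0 in 7, Pdcd1lg2 in 10 with 0 in 3, and Pdcd1 in 8 with 0 in 5. Tigit had a 0 in 1 tumor and at least 33 counts in each of the others. All 4 averaged under 0.5 TPM in 3 of the 4 groups, and Lag3 did so in 2, although no tumor had fewer than 11 counts of Lag3. No tumor was near zero for Cd274, Havcr2, Lgals9, Cd47 or Cd276.

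Cd274 (gene 60533, chromosome 19, 29362107 to 29388095, GRCm38.p6) encodes the main ligand of PD-1 on tumor and myeloid cells. In lean tumors before therapy it stood at 40.4, 97.5, 85.6 and 87.4 CPM (counts scaled by library size and TMM) in tumors 1 to 4. After ETS, lean tumors held 12.4, 10.4, 10.7 and 10.3 CPM. Every lean tumor after ETS was thus below the lowest lean tumor before therapy, and the fold was 7.07 (log2 -2.82 ± 0.30 SE, edgeR adjusted p = 9.47e-06). Obese tumors before therapy held 7.44, 5.76, 4.34 and 6.45 CPM, and after ETS 12.2, 8.61, 7.08 and 18.2 CPM. The obese groups overlapped, since tumor 3 after ETS lay below tumor 1 before therapy, and the rise was 1.92-fold (log2 0.94 ± 0.29, edgeR adjusted p = 0.0175). Without obese tumor 4 after ETS, the highest, the rise was 0.63 on the log2 scale (edgeR adjusted p = 0.0667), and without obese tumor 3 before therapy it was 0.82 (edgeR adjusted p = 0.0591).

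Before therapy Cd274 was 12.97-fold lower in obese than in lean tumors (log2 -3.70 ± 0.31, edgeR adjusted p = 1.04e-06). After ETS the obese and lean tumors overlapped, with a difference of 0.069 ± 0.28 on the log2 scale (edgeR adjusted p = 0.909). The effects of ETS in lean and in obese tumors differed by -3.77 ± 0.41 on the log2 scale (edgeR adjusted p = 3.33e-05). Across the interval of the gene, the Cd274 locus overlaps Plgrkt, a plasminogen receptor gene, which stood at 23.1 to 35.1 TPM in lean tumors after ETS and 26.02 to 56.3 before therapy. Whether counting used the strand is not stated in the sources used here, so reads of overlapping genes could be shared.

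Pdcd1lg2 (chromosome 19, 29410919 to 29472927), the second ligand of PD-1, lies 22823 bases past Cd274. Its counts were 43, 85, 78 and 89 in lean tumors before therapy and 8, 0, 6 and 4 after ETS. In obese tumors they were 3, 5, 3 and 0 before therapy and 0, 5, 14 and 25 after ETS. Only lean tumors before therapy were clear of near-zero counts, and in the fit with no exclusion Pdcd1lg2 changed by -3.81 ± 0.93 there on the log2 scale (edgeR adjusted p = 0.00734). It was lower in obese than in lean tumors before therapy by -4.43 ± 0.98 (edgeR adjusted p = 0.00568). The difference between obese tumors after and before ETS, 1.83 ± 0.96, was not called (edgeR adjusted p = 0.204), while the 2 effects of ETS differed (log2 -5.64 ± 1.33, edgeR adjusted p = 0.0130).

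Lgals9 (chromosome 11, 78962979 to 78984924), the galectin ligand of TIM-3, was the most abundant of the genes and took another course. It stood at 133.1, 138.1, 108.0 and 112.2 CPM in lean tumors before therapy and at 133.1, 171.8, 113.5 and 139.6 CPM after ETS. These overlapped, and the difference of 0.18 ± 0.15 on the log2 scale (edgeR adjusted p = 0.335) turned to -0.20 when log2(TPM + 1) was tested. Obese tumors before therapy held 83.9, 85.7, 58.2 and 68.4 CPM and after ETS 169.2, 172.9, 124.5 and 158.9. All obese tumors after ETS lay above all those before therapy, a 2.11-fold rise (log2 1.08 ± 0.15, edgeR adjusted p = 0.000121). Before therapy Lgals9 was lower in obese than in lean tumors by a log2 difference of -0.73 ± 0.15 (edgeR adjusted p = 0.00233). The effects of ETS differed between hosts by -0.90 ± 0.21 (edgeR adjusted p = 0.00938).

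Cd47 (chromosome 16, 49851328 to 49912503), the signal against engulfment, stood at 41.2, 50.7, 35.6 and 43.5 CPM before therapy and 22.1, 21.4, 18.4 and 21.9 after ETS. The lean groups did not overlap, and the fall was 2.04-fold (log2 -1.03 ± 0.22, edgeR adjusted p = 0.00200). Obese tumors held 33.7, 31.3, 35.8 and 47.1 CPM before therapy and 30.9, 26.4, 29.7 and 61.4 after ETS. Obese tumor 4 after ETS stood apart from the other 3, and the difference was 0.0040 ± 0.22 on the log2 scale (edgeR adjusted p = 0.991), or -0.35 without that tumor. After ETS Cd47 was higher in every obese than in every lean tumor (log2 0.82 ± 0.22, edgeR adjusted p = 0.0433). Without obese tumor 4 the difference was 0.47 and no longer passed (edgeR adjusted p = 0.113), and it was lost in 10 of 16 fits that left out a tumor. The difference between the effects of ETS, -1.03 ± 0.31 (edgeR adjusted p = 0.0336), was lost in 8 of these 16 fits.

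Cd276 (chromosome 9, 58524300 to 58555033), the B7-H3 gene, was the only 1 of the 10 called higher with ETS in both hosts. It stood at 29.95, 32.5, 24.0 and 36.8 CPM in lean tumors before therapy and 40.7, 43.1, 45.9 and 38.0 after ETS. In obese tumors it stood at 35.4, 34.9, 39.9 and 40.1 CPM before therapy and 59.8, 58.2, 52.9 and 43.8 after ETS. Neither pair of groups overlapped in CPM, and the rises were 1.36-fold in lean (log2 0.44 ± 0.12, edgeR adjusted p = 0.00981) and 1.43-fold in obese tumors (log2 0.51 ± 0.12, edgeR adjusted p = 0.00469). On the TPM scale the lean groups overlapped and the lean rise was 0.078 (limma adjusted p = 0.609), and between these scales the median of all genes shifted by -0.35 for the lean comparison. The effects in lean and obese tumors differed by -0.070 ± 0.18 (edgeR adjusted p = 0.828), which does not show that they were equal.

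Among the receptors, Pdcd1 (chromosome 1, 94038305 to 94052553), the receptor of PD-L1 and PD-L2, had 203, 481, 273 and 407 counts in lean tumors before therapy. After ETS lean tumors had 15, 3, 0 and 2 counts. Obese tumors had 10, 20, 0 and 0 before therapy and 0, 0, 12 and 6 after ETS. All 12 tumors outside the lean group before therapy thus held 20 counts or fewer. In the fit with no exclusion Pdcd1 fell in lean tumors (log2 -5.87 ± 1.18, edgeR adjusted p = 0.00201) and was lower in obese than in lean tumors before therapy (log2 -5.18 ± 1.13, edgeR adjusted p = 0.00538). In obese tumors the change with ETS, -0.91 ± 1.18 on the log2 scale, was not called (edgeR adjusted p = 0.646). The difference between the effects of ETS was -4.95 ± 1.65 and was not called (edgeR adjusted p = 0.0728).

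Ctla4 (chromosome 1, 60909025 to 60915832), which engages CD80 and CD86, had 29, 97, 89 and 146 counts in lean tumors before therapy and 10, 0, 2 and 0 after ETS. In obese tumors it had 3, 6, 0 and 0 counts before therapy and 0, 5, 0 and 0 after ETS. Ctla4 was lower in lean tumors after ETS (log2 -4.67 ± 1.18, edgeR adjusted p = 0.00898) and in obese tumors before therapy (log2 -4.96 ± 1.21, edgeR adjusted p = 0.0109) than in lean tumors before therapy. With so few counts in obese tumors, a change with ETS there was not detectable at this depth (log2 -0.85 ± 1.43, edgeR adjusted p = 0.756).

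Lag3 (chromosome 6, 124904359 to 124912434), a CD4-related receptor that binds MHC class II, stood at 5.94, 11.5, 4.11 and 8.67 CPM in lean tumors before therapy and at 0.677, 0.499, 0.519 and 0.543 after ETS. Obese tumors held 0.600, 0.379, 0.469 and 0.707 CPM before therapy and 0.471, 0.227, 0.892 and 1.49 after ETS. Lag3 was the receptor with the largest drop among those tested without a 0, at 13.4-fold in lean tumors (log2 -3.75 ± 0.47, edgeR adjusted p = 3.57e-05). It was lower in obese than in lean tumors before therapy by -3.80 ± 0.47 (edgeR adjusted p = 3.90e-05). In obese tumors the ETS groups overlapped (log2 0.52 ± 0.45, edgeR adjusted p = 0.376), and the effects of ETS differed by -4.27 ± 0.64 (edgeR adjusted p = 0.000399).

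Havcr2 (chromosome 11, 46454931 to 46481255), the TIM-3 gene, is used by exhausted T cells and by macrophages and dendritic cells. It stood at 5.90, 13.2, 8.42 and 9.82 CPM in lean tumors before therapy and 2.51, 0.939, 2.11 and 0.945 after ETS. Obese tumors held 1.76, 1.56, 0.787 and 0.971 CPM before therapy and 4.10, 2.97, 1.90 and 3.15 after ETS. Neither pair overlapped. Havcr2 fell in lean tumors (log2 -2.52 ± 0.38, edgeR adjusted p = 0.000164) and was the only receptor called in obese tumors, where it rose (log2 1.26 ± 0.38, edgeR adjusted p = 0.0159). The rise no longer passed without obese tumor 3 before therapy (edgeR adjusted p = 0.0533) or without obese tumor 1 after ETS (edgeR adjusted p = 0.0520). The effects of ETS differed by -3.77 ± 0.54 (edgeR adjusted p = 0.000259), and after ETS the obese and lean tumors overlapped (log2 0.89 ± 0.37, edgeR adjusted p = 0.151).

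Tigit (chromosome 16, 43626137 to 43665125), a receptor of nectin family ligands, had 296, 560, 307 and 539 counts in lean tumors before therapy and 66, 70, 39 and 50 after ETS. In obese tumors it had 43, 35, 0 and 33 counts before therapy and 72, 38, 57 and 96 after ETS. Tigit fell in lean tumors (log2 -2.71 ± 0.65, edgeR adjusted p = 0.00627) and was lower in obese than in lean tumors before therapy (log2 -3.64 ± 0.68, edgeR adjusted p = 0.00173). Its change with ETS in obese tumors, 1.095 ± 0.64 on the log2 scale, was not called (edgeR adjusted p = 0.2555). Its counts and its TPM did not move in step. A TPM of 1 stood for 167.2 to 315 counts in lean tumors before therapy and for 611.9 to 861.2 in the other groups. Over tumors this ratio ranged 5.15-fold, against 1.41- to 1.75-fold for the other 9 genes. Mean TPM went from 1.995 in lean tumors before therapy to 0.067 after ETS. The size of each Tigit difference from lean tumors before therapy thus depends on the measure. Tigit lies within a region of overlap with Zbtb20, a transcription factor gene, and Mir568. Zbtb20 stood at 1.81 to 4.86 TPM in lean tumors before therapy and 1.09 to 3.84 after ETS. Whether shared reads set part of the Tigit counts was not tested.

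**Figure D2:**
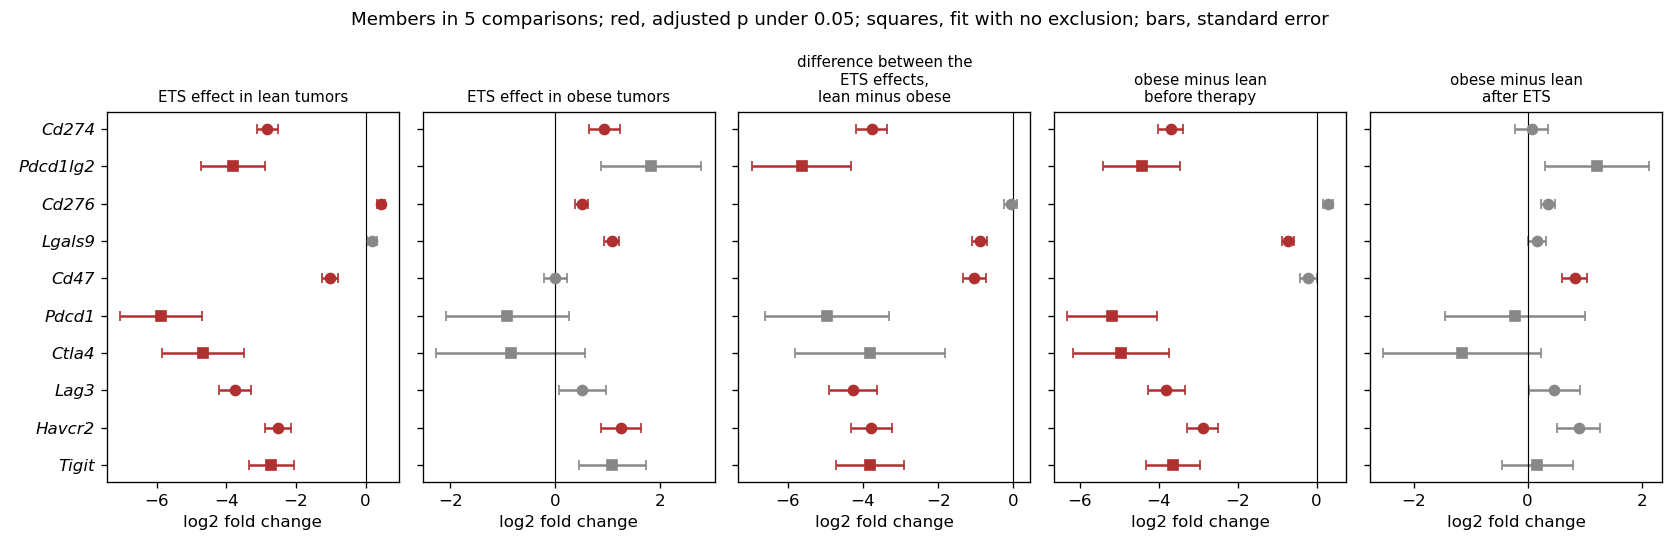
Log2 fold change (x axis) of each checkpoint gene (y axis) in 5 comparisons, with bars of 1 standard error. Red marks an adjusted p under 0.05, circles the fit without genes that had a 0 and squares the fit with no exclusion. Each panel has its own x axis. Points lie left of 0 for 8 genes in lean tumors and for 9 in the comparison of obese with lean tumors before therapy, and on both sides of 0 after ETS.

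Counted over the 6 genes that passed the exclusion, ETS in lean tumors went with 4 falls and 1 rise, a median log2 fold change of -1.77 against -0.015 over all 16209 genes tested, of which 22.8% were called lower and 21% higher. In obese tumors 4 of the 6 rose and 0 fell, with a median of 0.73, while 21.2% of all genes were called higher and 19% lower. The count fell to 2 of 6 without obese tumor 3 before therapy. The effects of ETS differed in 5 of the 6, all with a lower value in lean tumors (median -2.40), against 10.1% of all genes in that direction and 6.35% in the other.

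Before therapy 4 of the 6 were lower in obese tumors and 0 higher, with a median of -1.81 and a background of 12.9% lower and 13.5% higher. After ETS only Cd47 was called, as higher in obese tumors, against 3.28% of genes higher and 2.3% lower. The comparisons of lean tumors after ETS and of obese tumors before therapy share the same 4 lean tumors before therapy, so their values are not independent. The difference between the effects of ETS uses these 4 tumors too. With no exclusion, 28754 genes were tested. Among them, Pdcd1lg2, Pdcd1 and Ctla4 had 25 counts or fewer per tumor outside lean tumors before therapy. Near zero, they could differ from that group only by being lower. Of the 10 checkpoint genes, 9 were called in lean tumors (23.4% of all genes, either direction). These counts were 8 of 10 before therapy (14.2%), 7 for the difference between effects (9.23%) and 4 in obese tumors (20.1%). By edgeR 0 were called after ETS (1.56%), where 3 genes (Cd47, Cd276 and Havcr2) had an unadjusted p under 0.05. DESeq2, on the genes without a 0, called 1 of the 6 after ETS, and 2078 of all 16209 genes tested. The labels number the tumors and say nothing more of their origin, so p-values measure the spread between the tumors of a group.

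Markers of T cells were also highest in lean tumors before therapy. Over 18 T cell markers the summed TPM was 94.5 to 155.5 in lean tumors before therapy, 10.1 to 20.1 after ETS, 8.49 to 18.3 in obese tumors before therapy and 22.1 to 47.8 after ETS. Thy1, which fibroblasts and other cells also express, made up 15.4 to 39.4 TPM of the sum in obese tumors after ETS, and without it the other 17 markers came to 59.8 to 120.7, 6.34 to 8.33, 3.39 to 7.15 and 4.81 to 8.38 TPM in the same order of groups. Cd3e, a chain of the T cell receptor complex, was at 0 in all 4 obese tumors before therapy and at 5 counts or fewer in lean tumors after ETS, and Cd2 was at 0 in the latter. Of the 3 T cell markers that passed the exclusion, Thy1 and Lck fell in lean tumors, Thy1 and Lat rose and Lck fell in obese tumors, and all 3 were lower in obese than in lean tumors before therapy. These 3 were named after their values were seen, and 12.9% of all genes tested were lower in obese tumors before therapy. In whole tumors, fewer cells of a type and less RNA per cell cannot be told apart.

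Cd8a, the coreceptor of cytotoxic T cells, had 330 to 815 counts in lean tumors before therapy and 23 or fewer in every other tumor. Foxp3, the factor of regulatory T cells, had 13 to 100 counts and elsewhere at most 10. The 9 NK and cytotoxic markers summed to 50.8 to 98.7 TPM in lean tumors before therapy, 0.459 to 2.23 after ETS, 0.194 to 1.09 in obese tumors before therapy and 0.882 to 7.13 after ETS. Ncr1, which marks NK cells, and Klrd1 were at 0 in all obese tumors before therapy. Their part in the receptor values was not tested.

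The summed TPM of the 14 macrophage markers, with its highest median in lean tumors before therapy, came to 796.1 to 2122 in lean tumors before therapy, 72.0 to 507 after ETS, 66.8 to 408 in obese tumors before therapy and 488 to 1636 after ETS. Single markers took other courses, and Cd163 and Mrc1, named after their values were seen, reached 35.9 and 53.6 TPM in obese tumors after ETS against at most 3.03 and 25.6 in lean tumors before therapy. None was at 0 in all tumors of a group. Of the 13 tested, 10 fell in lean tumors (22.8% of all genes tested did) and 9 rose in obese tumors (21.2%). Csf1r, the receptor of macrophage growth factor, had 126 to 1184 counts in obese tumors before therapy and 926 to 4948 after ETS. The 10 melanocyte markers, which mark the tumor cells, summed to 18070 to 22160 TPM in lean tumors before therapy and 16640 to 19610 after ETS. In obese tumors they summed to 9164 to 13490 before therapy and 9488 to 18540 after ETS. With ETS 3 of the 10 were called higher in lean tumors (21% of all genes tested) and 5 in obese tumors (21.2%). Before therapy 6 of the 10 were lower in obese than in lean tumors, against 12.9% of all genes tested. The part of these cells in Cd274 and Havcr2 was not tested.

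**Figure D3:**
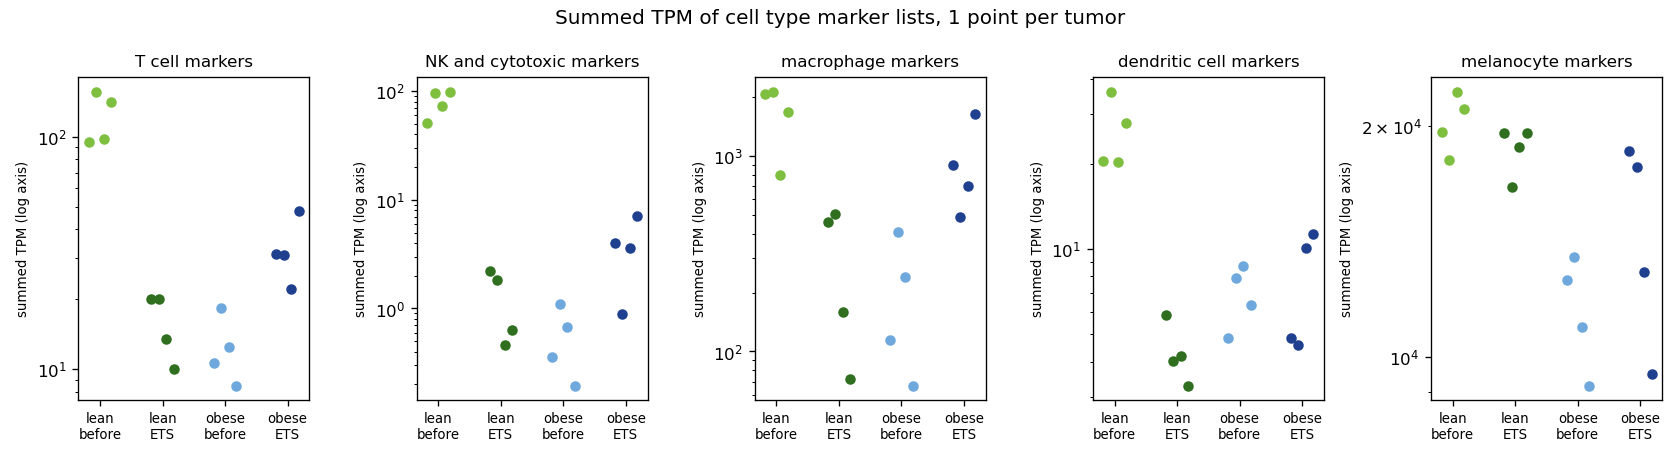
Summed TPM (log axis) of the marker lists of T cells, NK and cytotoxic cells, macrophages, dendritic cells and melanocytes in the 4 groups, with 1 point per tumor. T cell and NK lists lie highest in lean tumors before therapy with no overlap, and the macrophage list in obese tumors after ETS lies above the same list in obese tumors before therapy.

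Set against T cells, the receptors did not all keep 1 ratio. The 4 Cd3 genes (Cd3e, Cd3d, Cd3g and Cd247) summed to 590 to 1035 counts in lean tumors before therapy, where Pdcd1 had 34.4 to 46.5 counts per 100 Cd3 counts, Lag3 44.2 to 72.2, Tigit 50.2 to 61.6, Havcr2 60.2 to 90.5 and Ctla4 4.92 to 16.7. In the other 12 tumors the Cd3 sum was 0 to 55, so ratios there rest on few counts. Havcr2 had 195.8 to 1475 counts per 100 Cd3 counts in lean tumors after ETS against 60.2 to 90.5 before therapy. In obese tumors its ratio was 325.0 to 1175 before therapy (3 tumors with Cd3 counts) and 327.3 to 1130 after ETS, which overlap. Lag3 had 95.0 to 620.0 and Tigit 165.0 to 1000 in lean tumors after ETS. Both lay above their ranges in lean tumors before therapy as well, whereas Pdcd1 had 0 to 40.0 and Ctla4 0 to 25.0. In obese tumor 4 before therapy Lag3 had 40 counts and Tigit 33 with a Cd3 sum of 0. These ratios are descriptions with no test.

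A list of 48 further checkpoint and costimulatory genes, of which 47 were in the tables and 27 passed the exclusion, was described in the same way. In lean tumors 18 of the 27 fell and 1 rose (median log2 -1.07), and in obese tumors 14 rose and 1 fell (median 0.94). Before therapy 15 were lower and 1 higher in obese tumors (median -0.92), the effects of ETS differed in 17, all lower in lean tumors (median -2.11), and after ETS 5 were higher in obese tumors (median 0.55). The last count was 0 without lean tumor 3 after ETS or without obese tumor 4 after ETS. The share of all genes in each of these directions is the one given above.

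Tnfrsf14 (HVEM), the ligand of the inhibitory receptor BTLA, came first in lean tumors, with 36.1 ± 11.7 CPM before therapy and 2.80 ± 0.27 after ETS (SD, n = 4; log2 -3.69 ± 0.37, edgeR adjusted p = 5.83e-06). In obese tumors Tnfrsf14 rose from 1.66 ± 0.85 to 3.91 ± 1.46 CPM (log2 1.24 ± 0.35, edgeR adjusted p = 0.0113). Lilrb4a, an inhibitory receptor of myeloid cells, fell in lean tumors (log2 -2.71 ± 0.46, edgeR adjusted p = 0.000349) and rose in obese tumors (log2 1.91 ± 0.45, edgeR adjusted p = 0.00396). Before therapy it was lower in obese than in lean tumors (log2 -2.83 ± 0.46, edgeR adjusted p = 0.000413). After ETS it was higher in obese tumors than in lean tumors after ETS (log2 1.79 ± 0.45, edgeR adjusted p = 0.0337).

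Tnfrsf18 (GITR), a costimulatory receptor of regulatory T cells, was lower in obese than in lean tumors before therapy (log2 -2.62 ± 0.34, edgeR adjusted p = 6.61e-05) and rose there with ETS (log2 1.965 ± 0.34, edgeR adjusted p = 0.000551). Entpd1 (CD39), which breaks down extracellular ATP, was also lower in obese tumors before therapy (log2 -3.03 ± 0.46, edgeR adjusted p = 0.000228). Cd200, a ligand that restrains myeloid cells, rose in obese tumors (log2 1.40 ± 0.24, edgeR adjusted p = 0.000495). Hmgb1, a chromatin protein released from dying cells that also binds TIM-3, fell in lean (log2 -0.98 ± 0.17, edgeR adjusted p = 0.000391) and in obese tumors (log2 -1.33 ± 0.17, edgeR adjusted p = 6.35e-05). After ETS Thbs1, a matrix protein that binds CD47, was higher in obese tumors (log2 2.07 ± 0.43, edgeR adjusted p = 0.0174), as was the adenosine receptor gene Adora2a (log2 1.48 ± 0.41, edgeR adjusted p = 0.0469).

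**Figure D4:**
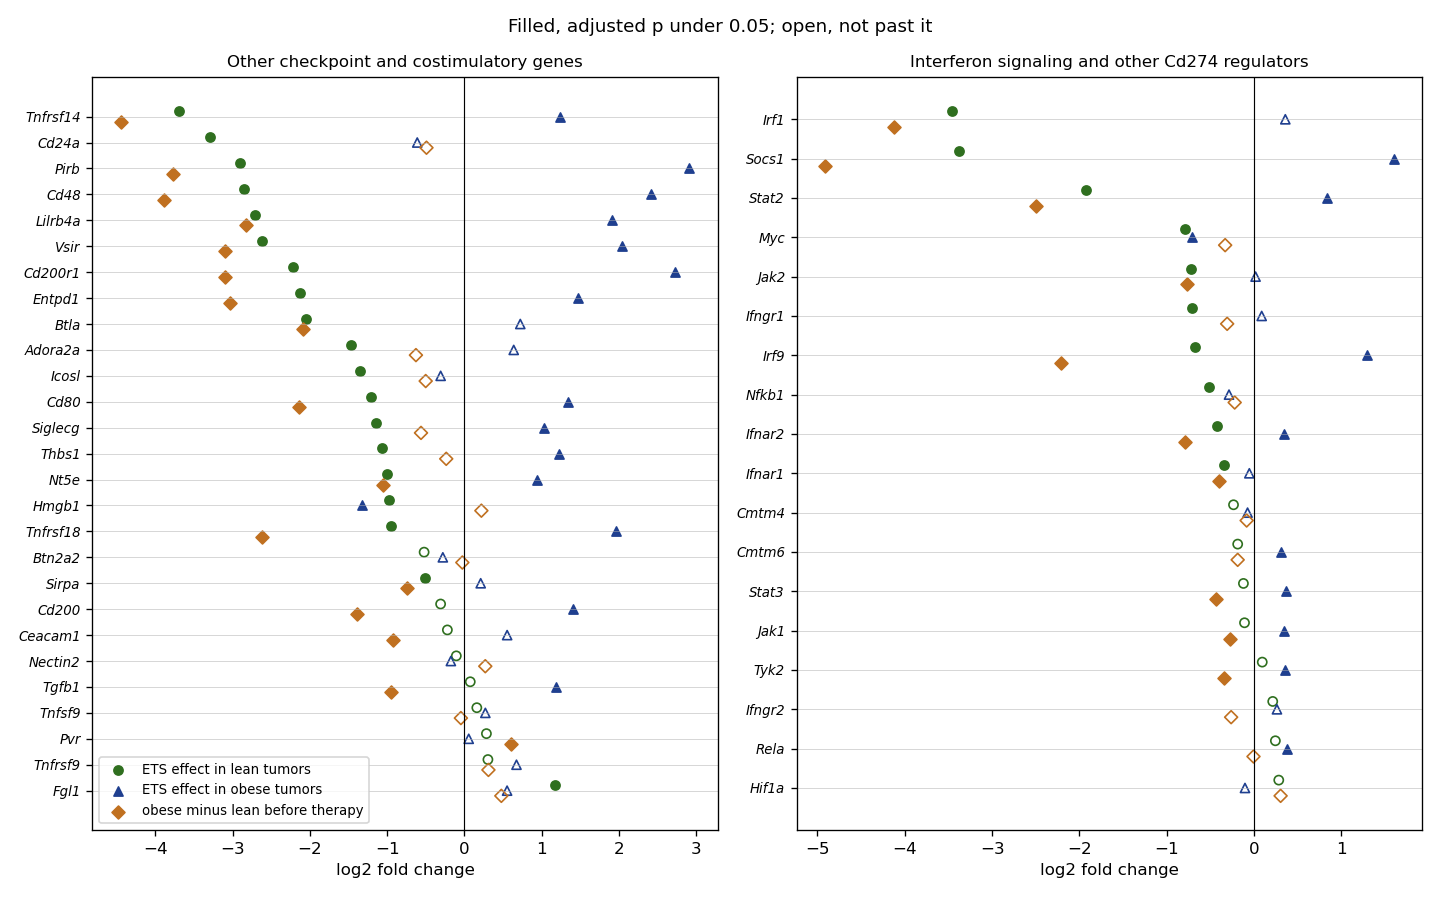
Log2 fold change (x axis) of tested genes of both lists (y axis), with green circles for ETS in lean tumors, blue triangles for ETS in obese tumors and orange diamonds for obese minus lean before therapy, filled where the adjusted p was under 0.05. On the left 18 of 27 genes fell in lean tumors, against 22.8% of all genes tested. The right panel draws 18 of the 19 regulators tested, with Irf1 and Socs1 lowest in lean tumors.

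Of 20 known regulators of PD-L1, 19 passed the exclusion. In lean tumors 11 of them fell and 0 rose (median -0.43), against 22.8% and 21% of all genes tested. In obese tumors 10 rose and 1 fell (median 0.34), against 21.2% and 19%. Before therapy 11 were lower in obese tumors and 0 higher (median -0.35), against 12.9% and 13.5% of all genes tested. The effects of ETS differed in 10, all lower in lean tumors (median -0.49), against 10.1% of all genes. After ETS 1, Ifngr1, was called, as higher in obese tumors (log2 0.49 ± 0.13, edgeR adjusted p = 0.0428), against 3.28% of all genes. The median of the list after ETS was -0.013.

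Irf1, the factor that acts directly on the PD-L1 promoter, fell from 299.6 ± 77.3 to 27.3 ± 7.17 CPM in lean tumors (log2 -3.46 ± 0.28, edgeR adjusted p = 1.47e-06). In obese tumors Irf1 went from 17.3 ± 5.15 to 22.1 ± 6.16 CPM and was not called (log2 0.36 ± 0.26, edgeR adjusted p = 0.294).

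Socs1, a feedback inhibitor of interferon signaling, fell in lean tumors (log2 -3.38 ± 0.32, edgeR adjusted p = 4.75e-06) and rose in obese tumors (log2 1.60 ± 0.33, edgeR adjusted p = 0.00162). Irf9, a factor of type I interferon signaling, rose in obese tumors (log2 1.29 ± 0.17, edgeR adjusted p = 8.31e-05). Ifng itself, chosen after its values were seen, had 65 to 176 counts in lean tumors before therapy and 0 to 4 in all others, with 4 counts in all over each of the other 3 groups.

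Genes whose log2 CPM followed Cd274 most closely over the 16 tumors were Nod1, a sensor of bacterial cell walls (Pearson r 0.986), Mlkl, the executioner of necroptosis (0.979), and Stat2 (0.976). The 16 tumors fall into groups that differ in Cd274, so these values mostly reflect the groups. After the group means were subtracted, the closest were C920006O11Rik (0.869), Syvn1 (0.854), a ubiquitin ligase of the endoplasmic reticulum, and LOC102632541 (0.834). The pattern of Pdcd1 was nearest to Irf1 (0.948), H2-Aa (0.933) and Fam111a (0.932), and that of Lag3 to Prph (0.972), Irf2 (0.961) and Irf1 (0.949).

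Cd47 was followed most closely by Cebpb (0.934), Btg1 (0.92) and Atf3 (0.919), a stress-induced factor. Lgals9 was nearest to Hsd3b7 (0.961), Mvp (0.953) and Shisa5 (0.95), Havcr2 to Spn (0.942), 9530082P21Rik (0.94) and 9130208D14Rik (0.939), and Cd276 to Mef2d (0.922), Mfge8 (0.899) and Zfpm1 (0.899). Among the members themselves, Cd274 and Lag3 had an r of 0.92 over the 16 tumors and 0.45 within groups, and Cd274 and Havcr2 had 0.905 and 0.623. Cd274 and Cd276 ran opposite, with -0.56 and -0.223.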

How the data were processed

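RNA of 16 B16F10 tumors, 4 per group, was analyzed, and groups and tumor numbers were taken from the labels. The authors trimmed reads with Trimmomatic, aligned them to mm10 with HISAT2 2.1.0 and quantified them per gene with StringTie 2.1.3b. The deposited counts per gene are whole numbers that had not been normalized, and the deposited TPM values come from the same step. Deposited FPKM values were not used. Stranded poly(A) libraries had been made, and the strand setting of counting is not given in the sources used here.

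Following the study's methods, the 29568 of 45777 genes that had a 0 somewhere among the tumors were left out, and 16209 remained. Counts were scaled by TMM and tested with edgeR's quasi-likelihood test (edgeR 4.0.16, R 4.3.3) with group means as the design, and p-values were adjusted by Benjamini-Hochberg over all genes tested. Genes were called at an adjusted p under 0.05. Tested were ETS in lean tumors, ETS in obese tumors, how far they differ (lean minus obese), and obese against lean hosts at each time. Genes with a 0 were tested in the same way without the exclusion. The test was checked on simulated data.

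Alternatives were DESeq2 1.42.0 and its size factors, edgeR's exact test on counts with 1 added, limma-voom and limma on log2(TPM + 1) (limma 3.58.1), filterByExpr, no exclusion, only the groups compared, a replicate block and each tumor left out. The 10 genes, the gene lists and the tests were chosen with earlier results of these data known. From the list of further checkpoint genes and that of PD-L1 regulators, the 3 called genes with the smallest p in each comparison and a mean of at least 1 TPM are named, and for genes with a mean of at least 1 TPM the 3 genes with the nearest pattern. The single values of 1 regulator are not reported here. Positions and promoters come from RefSeq tables of GRCm38.p6. Pairs of tumors within a group differed by more than sampling noise in all groups. Separate libraries of the same tumor could do so too, so this does not show that the tumors are independent. Each was counted as 1 replicate by its label.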

Additional observations from a re-analysis of the deposited data

Results flagged for a closer look

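The effect of ETS differed between lean and obese tumors, by the test of the difference itself, for 7 of the 10 genes. Of all genes, 9.23% were called for this difference with no exclusion. With the exclusion, 10.1% were called lower in lean tumors and 6.35% higher. Each difference uses the 4 lean tumors before therapy, the only group in which Pdcd1lg2 was clear of near-zero counts. On the log2 scale, lean minus obese, the difference was -3.77 for Cd274, -5.64 for Pdcd1lg2, -4.27 for Lag3, -3.77 for Havcr2, -3.81 for Tigit, -0.90 for Lgals9 and -1.03 for Cd47. The values of Pdcd1lg2 and Tigit come from the fit with no exclusion. The value of Tigit rests on counts, which did not move in step with its TPM. Only that of Cd47 was lost when single tumors were left out, in 8 of 16 fits.

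In 40 sets of 4 tumors (10 genes in 4 groups), 2 held a tumor far from the other 3. Chance flags about 1 in 20 such sets if values are normally distributed, which does not hold for sets near zero counts. Cd47 stood at 61.4 CPM in obese tumor 4 after ETS, against 26.4 to 30.9 in the others. Ctla4 stood at 0.103 CPM in obese tumor 2 after ETS, where the others were at 0, which rests on 5 counts. A set with 3 tumors at 0 and 1 above it is always flagged.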

How the results depend on the processing

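Over the alternatives, 1160 of the single-gene values kept direction and side of the threshold, 30 lost the call, 7 gained it and 23 changed sign. Of the 1160, 761 came from fits that left out 1 tumor, and many of these left out a tumor of a group not compared. For the difference between effects, the fit of only the groups compared is the reported fit itself. Without the exclusion of genes with a 0, and with filterByExpr, 9 of the 10 genes were called in lean tumors (5 as reported). Before therapy the count was 8 (4 as reported). Of the 47 further checkpoint genes listed in the data, 27 were called for the difference between effects (17 of 27 as reported). Before therapy 28 or 29 of them were called (16 of 27 as reported). More genes are tested in these fits, and some, such as Icos, were near zero outside lean tumors before therapy. Pdcd1lg2, Pdcd1 and Ctla4, which these fits add, had 25 counts or fewer per tumor there. Genes near zero there could differ from lean tumors before therapy only by being lower, so the larger counts are not wider support. With no exclusion, the share of all genes called was 23.4% in lean tumors, 14.2% before therapy and 9.23% for the difference. That share was not counted with filterByExpr. After ETS the genes called (1 as reported) came to 0 with limma-voom, with only the groups compared and without the exclusion, and the further genes (5) to 3, 0 and 2, and to 3 with filterByExpr. With each tumor left out, the ranges were 0 to 1 and 0 to 5 after ETS and, for the 10 genes in obese tumors, 2 to 4. The cause was not tested.

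The rise of Cd274 in obese tumors did not pass with limma-voom (adjusted p = 0.0715) or limma on log2(TPM + 1) (adjusted p = 0.105). The difference between the effects of ETS on Pdcd1 passed with limma-voom (adjusted p = 0.0474), with limma on log2(TPM + 1) (8.15e-05), and without lean tumor 1 after ETS (edgeR adjusted p = 0.0347) or obese tumor 2 before therapy (0.0353), and that on Ctla4 passed with limma on log2(TPM + 1) (0.00979). Cd276 passed between hosts after ETS with limma on log2(TPM + 1) (0.0380) and before therapy without lean tumor 4 (edgeR adjusted p = 0.0434). Signs turned for values that were not called. After ETS, log2 differences were -0.025 with limma-voom for Cd274 and 0.0017 with TPM for Pdcd1, and with single tumors left out they ran from -0.24 to 0.25 for Cd274, -1.27 to 1.28 for Pdcd1, -4.68 to 0.82 for Ctla4, -0.050 to 0.76 for Lag3 and -0.060 to 0.34 for Tigit (the lowest of Cd274, Lag3 and Tigit without obese tumor 4). In obese tumors, they ran from -1.96 to 0.24 for Pdcd1, -4.39 to 0.26 for Ctla4 and -0.35 to 0.14 for Cd47, which was -0.0648 with limma-voom, -0.14 with TPM, -0.016 with filterByExpr and -0.013 with no exclusion. Lgals9 in lean tumors was -0.20 with TPM, and the difference between effects for Cd276 ran from -0.19 to 0.026. On the TPM scale the median of all genes shifted by -0.35 in lean tumors, -0.26 for the difference, -0.13 before therapy and 0.13 after ETS.

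Tumors share numbers across groups, but same-numbered tumors did not all deviate together (correlations from -0.046 to 0.452), so the numbers were not taken as pairs. The replicate block kept 48 of 50 values and every call, and turned Cd47 in obese tumors to -0.038 and Pdcd1 after ETS to 0.073. Depth limits Ctla4, Pdcd1 and Pdcd1lg2, whose counts outside lean tumors before therapy were 25 or fewer.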

Other observations

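Other host cell markers were summed as well. The 9 dendritic cell markers came to 20.3 to 36.0 TPM in lean tumors before therapy and 3.29 to 5.85 after ETS, and to 4.84 to 8.73 and 4.56 to 11.3 in obese tumors. The 6 fibroblast markers came to 154.6 to 411.8 TPM in lean tumors before therapy, 21.8 to 121.8 after ETS, 25.8 to 138.0 in obese tumors before therapy and 155.7 to 1200.0 after ETS, and all 6 rose in obese tumors. The 5 endothelial markers ran from 25.7 to 102.0 TPM over all tumors, and 4 of the 5 rose in obese tumors. Of all genes tested, 21.2% were called higher with ETS in obese tumors. The 5 B cell markers stayed between 2.09 and 5.70 TPM. The 6 neutrophil markers lay between 0.509 and 12.01 TPM in lean tumors. They reached 67.6 TPM in obese tumor 4 before therapy and 83.3 TPM in obese tumor 4 after ETS. The latter tumor, highest of its group in Cd274 and Cd47, also had its highest fibroblast sum (1200.0) and lowest melanocyte sum (9488). A link between these values was not tested.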
